A study of Mus musculus with 27 samples.

Results

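Neural progenitors made from clone KO #8, a mouse embryonic stem cell clone that lacks full Zfp512b, were compared with neural progenitors made from the parental WT cells. Both derive from the embryonic stem cell line V6.5 of the mouse. Of the 25209 genes listed for this comparison, all 12416 whose base mean reached 50 were taken, the base mean being the average of the normalized read counts over the 4 libraries compared. The counts of each library were worked out from the deposited base means for 12412 of these genes, and the other 4 (Peg3, Eef1a1, Hsp90ab1 and Slc2a1) gave no single set of counts and were not tested. A gene just under the limit was Stk31, with a base mean of 49.98, and those just above it were Fmo5 (50.05) and Tap2 (50.20).

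The study sequenced RNA of WT cells and of 2 Zfp512b KO clones, KO #4 and KO #8, in 27 libraries at 4 stages of differentiation. The neural progenitor cells (NPCs) account for 6 libraries, 2 each of WT, KO #8 and KO #4, all collected on Day 10. All 3 groups passed through priming, hanging drop embryoid bodies and a suspension culture with 5 µM retinoic acid (RA). In both clones a transcriptional terminator was placed behind the third exon of Zfp512b together with a selection marker, mCherry or puromycin resistance, and the WT cells did not go through this editing and selection. KO #8 is a single clone, so that an effect of the knockout and a peculiarity of the clone cannot be told apart from KO #8 alone. The samples are whole embryoid bodies that contain NPCs, not sorted cells, and a change in the share of a cell type and a change of RNA within it cannot be told apart.

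ZNF512B, the human counterpart of mouse Zfp512b, is a zinc finger protein that binds DNA and the NuRD complex, a chromatin remodelling and deacetylase complex, and is described as a transcriptional repressor. RA added to embryoid bodies drives cells toward a neural fate and switches on the Hox genes that give neural tissue the identity of hindbrain and spinal cord. Neural progenitors express SoxB1 factors and nestin, take a dorsal or ventral identity under BMP, Wnt and Shh signals, and leave the cycle to become neurons under proneural factors.

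The recovered reads of a library came to between 15.8 and 18.4 megareads. The 2 libraries of a group carry no replicate number in these values and are called a and b, and nothing in the labels says whether they came from separate cultures, so that p-values measure the spread between these libraries only. The KO #8 libraries differed from each other more than those of the other groups did. The median member differed between the 2 KO #8 libraries by 0.15 on the log2 scale, against 0.11 between the WT libraries and 0.09 between the KO #4 libraries. A difference of at least 2-fold within the group was found for 423 members in KO #8 (3.41%), with b above a for 360 of them, for 80 members in WT and for 36 in KO #4. Values below are normalized counts in the order a, b, and were divided by the size factors. A gene was called when limma's moderated test gave a Benjamini-Hochberg adjusted p under 0.05 over the 14492 genes whose base mean reached 10.

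The knocked-out gene itself, Zfp512b, spans 181316808 to 181327508 on the minus strand of chromosome 2 in mm9, with 17 exons in the transcript used here, and the terminator follows exon 3, which spans 181325175 to 181325317. Its counts were 2317 and 2640 in WT, 238 and 223 in KO #8 and 272 and 279 in KO #4. Both clones were far below WT and close to each other. The log2 fold change in KO #8 was -3.42 (SE 0.15, limma adjusted p = 0.00317), a 10.7-fold lower level and the smallest adjusted p of all members. Its paralogue Zfp512 on chromosome 5 had 1981 and 1834 in WT and 1766 and 1805 in KO #8 (log2 fold change -0.10, SE 0.08, adjusted p = 0.591), and was not called.

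Of the 12412 members tested, 608 were called, or 4.9%, with 359 higher in KO #8 (2.89%) and 249 lower (2.01%). An unadjusted p under 0.05 was reached by 2657 of the 12412 in either direction. Counts at that threshold within each list of genes stand against this share. The called genes that rose did so by a median of 0.63 on the log2 scale, and those that fell had a median of -0.99. A change of at least 1 was found for 75 genes called higher and 121 called lower. In all 608 the KO #8 libraries did not overlap the WT libraries, but both KO #8 libraries lay above both WT libraries in 26.3% of all members and below them in 27.1%, so that the lack of overlap alone sets few genes apart. Calls were more frequent among strongly expressed genes. With the members split by base mean into 4 groups of 3103, the group with the lowest base means had 34 genes called higher and 53 lower, with a median absolute change of 1.63 on the log2 scale. The group with the highest had 138 and 71, with a median of 0.60.

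How many genes were called depended on the libraries used. All 608 were also called when KO #8 library a or library b was left out, where 1693 genes were higher and 1233 lower without a, and 1123 and 714 without b. Without WT library a, 0 genes were called higher and 1 lower by limma, with 1178 at an unadjusted p under 0.05, and without WT library b 0 and 0, with 1595. With the spread estimated over all 6 NPC libraries the counts were 747 higher and 535 lower.

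**Figure D1:**
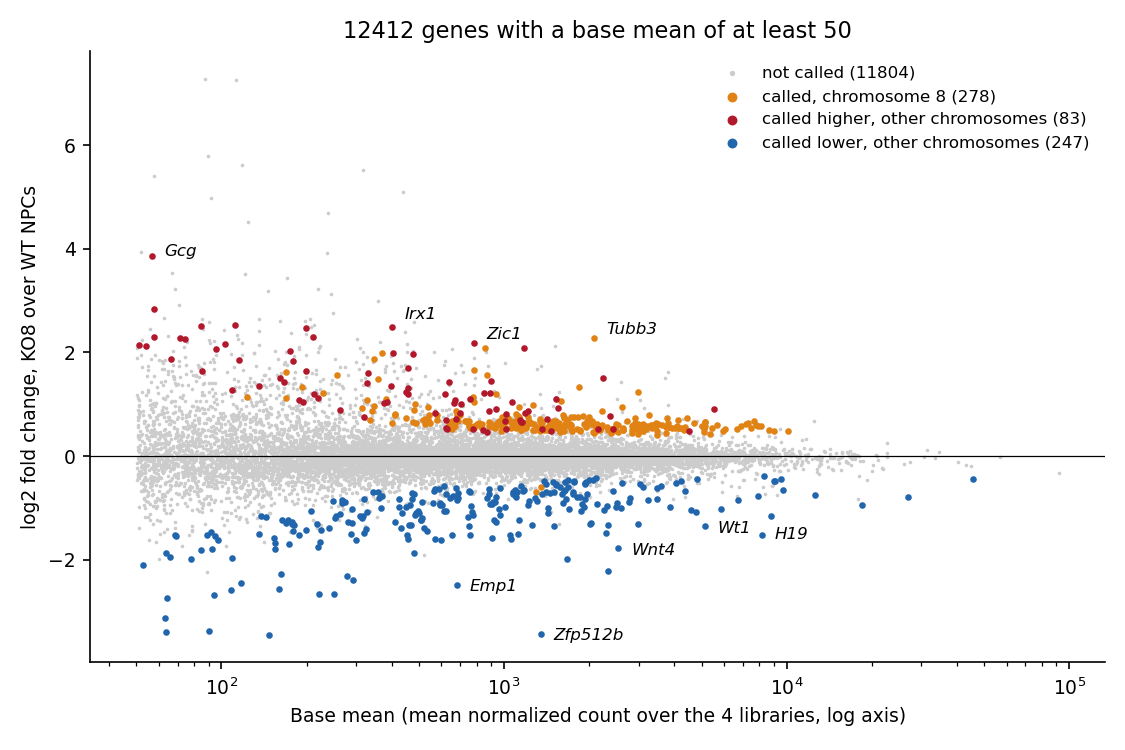
Log2 fold change of KO #8 over WT NPCs against the base mean (log axis) for the 12412 members tested, 1 point per gene. The 278 called genes of chromosome 8 (orange) form a band near a log2 fold change of 0.5, the 83 genes called higher elsewhere (red) reach 3.86 for Gcg, and the 247 called lower elsewhere (blue) reach -3.44.

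Most of the genes that rose lie on a single chromosome. Chromosome 8 carried 677 members (5.45%) and 276 of the 359 genes called higher (76.9%), against 2 of the genes called lower. Its median log2 fold change was 0.52, or 1.44-fold, with quartiles of 0.38 and 0.64, and 96.0% of its members had a value above 0. Both KO #8 libraries lay above both WT libraries in 598 of the 677 (88.3%). The medians of the other chromosomes, without Y, were between -0.04 and -0.01, with at most 9 genes called higher on each. Against the mean of the WT libraries, the chromosome 8 median was 0.53 and 0.52 in the KO #8 libraries, and 0.52 in each KO #4 library. The shift ran along the whole chromosome, with medians between 0.49 and 0.54 in 7 bins of 20 Mb.

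The strongly expressed genes among the 276 belong to many processes. Cnot1, the scaffold of the CCR4-NOT deadenylase complex, had 8038 and 8719.5 in WT and 12516 and 11102 in KO #8 (log2 fold change 0.49, SE 0.09, adjusted p = 0.0407). Tpm4, a tropomyosin of the actin cytoskeleton, changed by 0.51, and Sf3b3, a subunit of the splicing factor SF3b, by 0.58. Glg1, a Golgi membrane protein, rose by 0.58 and Col4a1, a chain of basement membrane collagen IV, by 0.49. Their size is that of the chromosome as a whole. Calls on chromosome 8 are therefore given apart below. Outside it 83 of 11735 members were called higher (0.707%), 53 of them by at least 1 on the log2 scale, and 247 were called lower (2.1%). The calls within each list of genes stand against these shares.

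**Figure D2:**
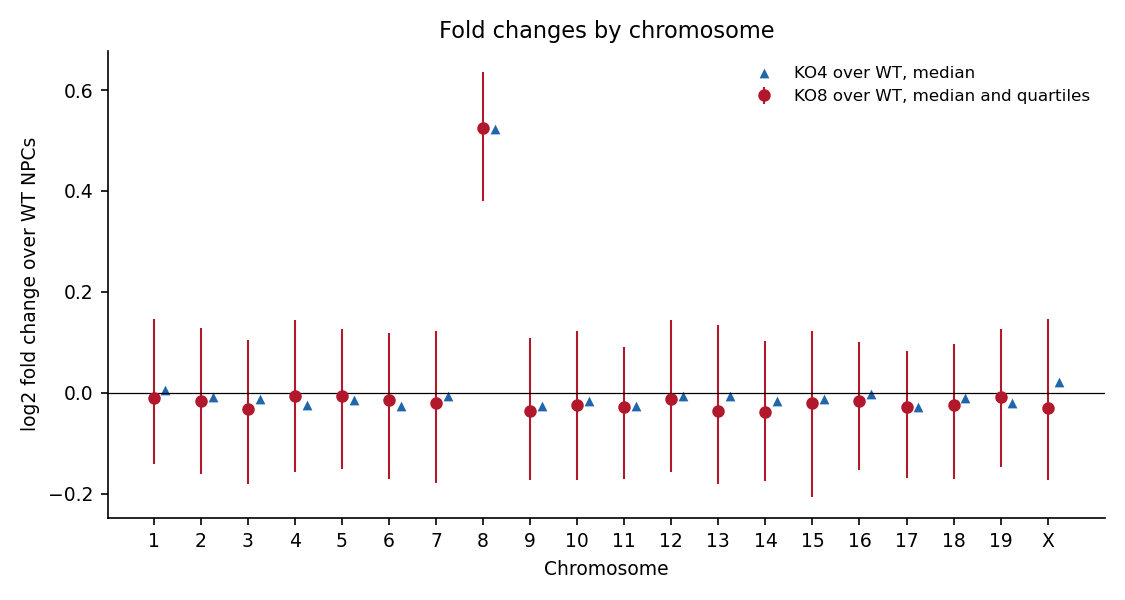
Median log2 fold change over WT NPCs by chromosome, for KO #8 (circles, with lines from the lower to the upper quartile of members) and KO #4 (triangles, median only). Chromosome 8 stands at 0.52 in both clones and every other chromosome shown lies between -0.04 and 0.02.

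The 12 largest rises among the called genes belonged to genes of several kinds. Gcg, which encodes glucagon and related peptides, had 5.9 and 7.59 in WT and 134 and 79.8 in KO #8, the largest rise of all called genes (log2 fold change 3.86, SE 0.60, adjusted p = 0.0252). Plac1, a placental gene on the X chromosome, had 17.7 and 33.6 in WT and 121 and 166 in KO #8 (log2 fold change 2.52), and Ugt2b34, a glucuronosyltransferase, 22.6 and 45.5 in WT and 158 and 221 in KO #8 (2.53). In each of them, as in all 359 genes called higher, both KO #8 libraries lay above both WT libraries. Mab21l2, a developmental gene of eye and midbrain, had 54.1 and 65.1 in WT and 419.8 and 256 in KO #8 (2.47, adjusted p = 0.0283). Vtn, the adhesive glycoprotein vitronectin, rose by 2.30, and Phyhipl, Ldoc1 and BC080695 by 2.30, 2.27 and 2.26. The remaining genes among the 12 largest rises were Zic4, Irx1, Tubb3 and Zic1, described below. In Gcg, Zic4, Ugt2b34, Plac1, Vtn, Ldoc1 and BC080695 both WT libraries were under 50. These genes reached the minimum base mean of 50 only through their KO #8 libraries. Among weakly expressed genes this minimum favoured large changes, and the ranking depends on it.

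Among the genes that fell, 4930523C07Rik showed the largest change, with 293 and 245 in WT and 30.9 and 19 in KO #8 (log2 fold change -3.44, SE 0.35, adjusted p = 0.0174). Matrix proteins and regulators of patterning were among the 12 largest falls. Tnn (tenascin-N) had 122 and 108 in WT and 17.8 and 5.99 in KO #8 and Tnxb (tenascin-X) 173 and 157 in WT and 21.5 and 11 in KO #8, with log2 fold changes of -3.40 and -3.37. Igfbp6, a binding protein of insulin-like growth factors, fell by 2.66 on the log2 scale, Emp1, an epithelial membrane protein, by 2.48, and Prss35, a serine protease, by 2.56. Calb1 (calbindin, a calcium-binding protein of neurons) had 158 and 169 in WT and 23.4 and 26.9 in KO #8 and Prkg2, a cGMP-dependent kinase, 108 and 115 in WT and 14 and 19 in KO #8, with log2 fold changes of -2.68 and -2.74. Like all 249 genes called lower, none of these overlapped between the groups, and in all of them KO #4 also lay below WT. In 4930523C07Rik, Tnn, Tnxb, Calb1, Prkg2 and Prss35, and in Lhx3 described below, both KO #8 libraries were under 50. These genes reached the minimum base mean of 50 only through their WT libraries.

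Neuronal genes were higher as a group but few were called. Of 39 genes of the neuron list, 31 lay above both WT libraries in both KO #8 libraries and 2 below, where 26.3% and 27.1% of all members did. The median log2 fold change was 1.21, against -0.01 over all members. Only 2 genes passed the test, both higher, and 26 were higher and 1 lower at an unadjusted p under 0.05. Tubb3, the neuronal tubulin used to mark new neurons, had 593 and 748 in WT and 2187 and 4789.8 in KO #8 (log2 fold change 2.28, SE 0.39, adjusted p = 0.032) and lies on chromosome 8, although its change exceeds the 0.52 of that chromosome. Scg3, a secretory granule protein, had 65.9 and 66.1 in WT and 211 and 353 in KO #8 (log2 fold change 2.03, SE 0.38, adjusted p = 0.0398). KO #8 library b exceeded a in 37 of the 39 genes, by a median of 1.03 on the log2 scale. The summed counts of the list were 18407 and 18055 in WT, 26752 and 47823 in KO #8 and 25820 and 29556 in KO #4. Without KO #8 library a the median was 1.73, and without b it was 0.69.

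Strongly expressed neuronal genes that did not pass the test were Dpysl3, a regulator of growth cones, with 1814 and 1978 in WT and 3053 and 5289.6 in KO #8 (adjusted p = 0.063), and Ncam1, the neural cell adhesion molecule, with 3378 and 2759 in WT and 2903 and 3008 in KO #8 (adjusted p = 0.851). Of 31 proneural and neurogenic transcription factors, 24 lay above both WT libraries and 3 below, where 26.3% and 27.1% of all members did. The list had a median of 1.19 (1.87 without KO #8 library a and 0.98 without b), with b above a in 28. By limma 0 were called higher, with 19 higher at an unadjusted p under 0.05, 13 called higher by limma with a trend on log2 CPM and 8 with all 6 libraries. Isl1, a factor of motor and sensory neurons, had 411 and 366 in WT and 767 and 595 in KO #8 (adjusted p = 0.0552), and Lhx1, an interneuron factor, 723 and 729 in WT and 953 and 2074 in KO #8 (adjusted p = 0.205). In the other direction Lhx3, which specifies motor neurons and V2 interneurons, had 121 and 104 in WT and 8.42 and 19 in KO #8 and fell (log2 fold change -3.12, SE 0.45, adjusted p = 0.0243).

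Markers of the labelled cells were present in every group. Nes, which encodes the intermediate filament nestin of neural progenitors, had 3756 and 3774 in WT and 5416 and 5168 in KO #8 and rose (log2 fold change 0.49, SE 0.08, adjusted p = 0.0261). Notch1, the receptor that keeps progenitors from differentiating, had 686 and 689.6 in WT and 1212 and 1668 in KO #8 and rose (log2 fold change 1.04, SE 0.17, adjusted p = 0.0283). Emx2, a patterning factor of forebrain and urogenital tissue, had 246 and 260.2 in WT and 110.3 and 92.8 in KO #8 and fell by 1.31 on the log2 scale (adjusted p = 0.0255), Ptprz1, a receptor phosphatase of radial glia, 243 and 261 in WT and 92.6 and 117 in KO #8 (-1.28), and Slc1a3, a glutamate transporter of radial glia, 1165 and 1179 in WT and 536 and 765 in KO #8 (-0.88). The other 24 of the 29 members of this list did not pass. Of the 29, 20 lay above both WT libraries and 4 below, where 26.3% and 27.1% of all members did, and the list had a median of 0.52. Large values that failed the test belong to Fabp7, a fatty acid binding protein of radial glia, with 20.6 and 31.4 in WT and 236 and 656 in KO #8 (log2 fold change 3.91, SE 1.02, adjusted p = 0.0922), to Sox21 with 46.2 and 42.3 in WT and 242 and 644 in KO #8 (adjusted p = 0.0936) and to Sox1, on chromosome 8, with 38.3 and 87.8 in WT and 180.5 and 489.9 in KO #8 (adjusted p = 0.143). Sox2 and Pax6 had 620.2 and 958 in WT and 1228 and 2559 in KO #8 and 176 and 186 in WT and 297 and 533 in KO #8, with adjusted p of 0.14 and 0.125. These 5 genes were chosen after their values were seen, and in each of them KO #8 library b was the highest of the 4 libraries compared.

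Of 31 members of the list for dorsal-ventral patterning 6 were called higher, 5 of them outside chromosome 8, and 1 lower, with a median of 1.05. Of all members outside that chromosome 0.707% were called higher and 2.1% lower. Zic1 and Zic4, zinc finger factors of the dorsal neural tube, lie side by side on chromosome 9, Zic1 from 91252896 to 91260648 on the minus strand and Zic4 from 91257251 to 91284186 on the plus strand, and share 60 exonic bases. Zic1 had 226 and 326 in WT and 909 and 1675 in KO #8 (log2 fold change 2.19, SE 0.40, adjusted p = 0.0359) and Zic4 13.8 and 13 in WT and 79.5 and 124 in KO #8 (log2 fold change 2.83, SE 0.47, adjusted p = 0.0293). Irx1 and Irx2, neighbours in the Iroquois cluster of chromosome 13, had 129.8 and 111 in WT and 609.7 and 758 in KO #8 (log2 fold change 2.49, SE 0.23, adjusted p = 0.0159) and 204 and 171 in WT and 582 and 941 in KO #8 (log2 fold change 1.97, SE 0.33, adjusted p = 0.0293). Msx3, a homeobox gene of the dorsal neural tube, had 353 and 516 in WT and 1308 and 2513 in KO #8 (log2 fold change 2.09, SE 0.38, adjusted p = 0.0359). The gene called lower was Shh, the ventral signal of notochord and floor plate, with 275 and 255 in WT and 82.3 and 34.9 in KO #8 (log2 fold change -2.28, SE 0.36, adjusted p = 0.0268). Shh shares 13.4% of its exonic bases with Gm17493 and 10.8% with 9530036O11Rik, both on the other strand. Ptch1, the receptor and a transcriptional target of Shh, had 4968 and 4510.4 in WT and 4028 and 3226 in KO #8 (adjusted p = 0.14), and Gli3, the main repressor of the pathway, 2719 and 2649 in WT and 3466 and 2769.5 in KO #8 (adjusted p = 0.392). Bmp7, a dorsal signal, had 1337 and 1168 in WT and 1393 and 1209 in KO #8 (adjusted p = 0.834). KO #8 library b exceeded a in 23 of the 31 genes, by a median of 0.64, and without library a or b the median of the list was 1.49 or 0.65.

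**Figure D3:**
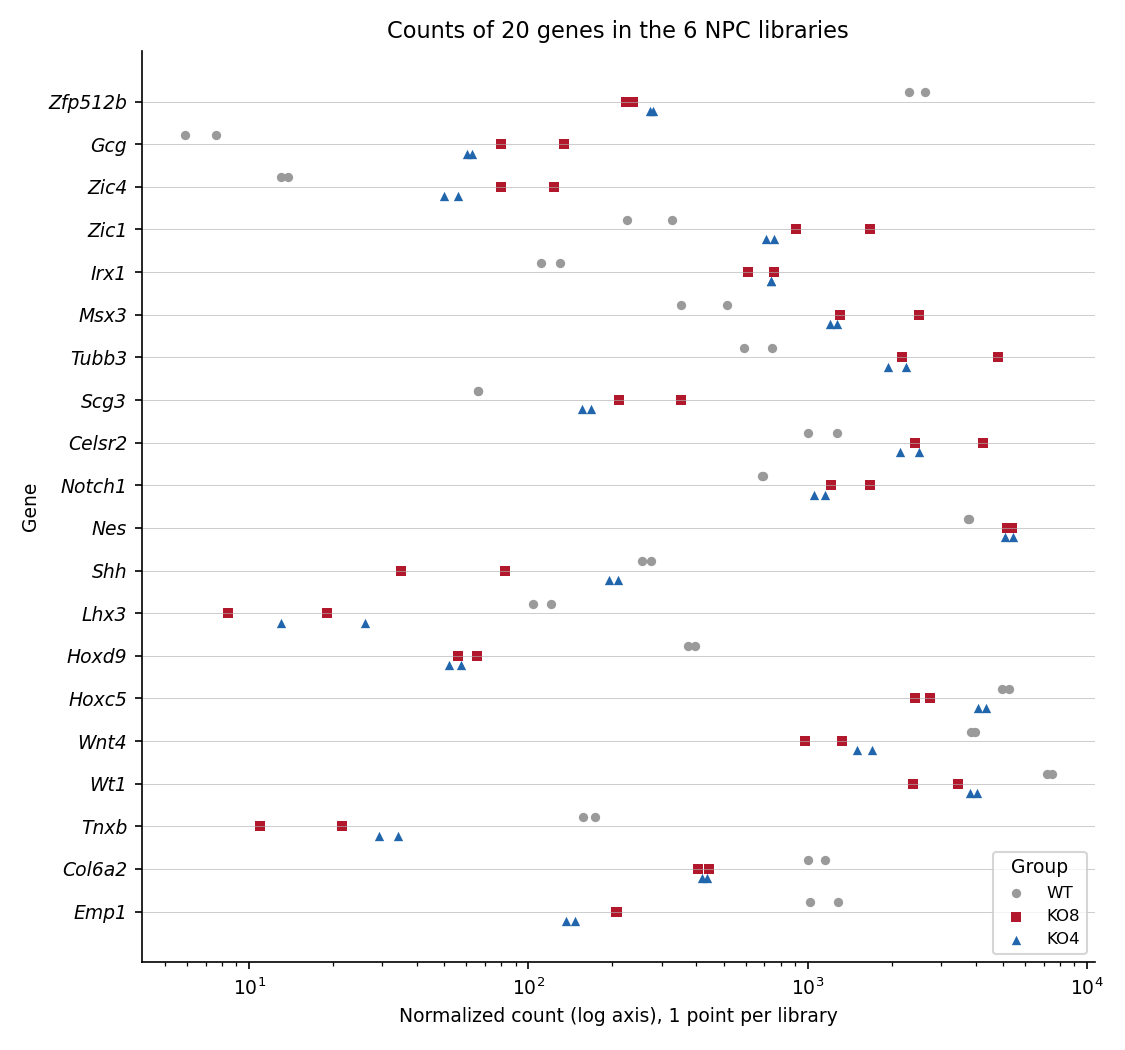
Normalized counts (log axis) of 20 genes in the 6 NPC libraries, 1 point per library, for WT (circles), KO #8 (squares) and KO #4 (triangles). All 20 are called genes, and in every called gene both KO #8 points lie on the same side of both WT points. They lie above in 26.3% of all members and below in 27.1%. Zfp512b has 2317 and 2640 in WT and 238 and 223 in KO #8.

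The Hox genes that were called lie in the middle of 2 clusters. Of 26 members 4 were called, all lower, but as many members lay above WT as below. Both KO #8 libraries lay above both WT libraries in 8 and below in 8, where 26.3% and 27.1% of all members did. At an unadjusted p under 0.05 by limma 6 were higher and 6 lower. Hoxd9, on chromosome 2 from 74535737 to 74538265 on the plus strand, had 373 and 394 in WT and 65.5 and 55.9 in KO #8 (log2 fold change -2.65, SE 0.22, adjusted p = 0.0149), and its neighbour Hoxd8 465 and 465 in WT and 244 and 305 in KO #8 (log2 fold change -0.77, SE 0.15, adjusted p = 0.0473). In the Hoxc cluster, Hoxc8 had 252 and 271 in WT and 61.7 and 107 in KO #8 (log2 fold change -1.69, SE 0.28, adjusted p = 0.0283) and Hoxc5 5259 and 4989 in WT and 2752 and 2423 in KO #8 (log2 fold change -0.99, SE 0.09, adjusted p = 0.0159), although Hoxc5 shares 15.4% of its exonic bases with another annotated transcript of the same strand. The most strongly expressed Hox genes of the Hoxa cluster did not pass, with 8655 and 8947 in WT and 7929 and 7715 in KO #8 for Hoxa5 (adjusted p = 0.274) and 3454 and 3806 in WT and 4075 and 3519 in KO #8 for Hoxa4 (adjusted p = 0.78). The median of the list was 0.10. Without KO #8 library a it was 0.32, and without b -0.04.

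Of 26 genes that respond to RA, 1 was called, and the list had a median of -0.01. The gene called was the orphan nuclear receptor Nr2f6, on chromosome 8, with 1746 and 1862 in WT and 2578 and 2532 in KO #8 (log2 fold change 0.50, SE 0.08, adjusted p = 0.0283), of whose exonic bases 54.4% overlap Ocel1 on the other strand. Cyp26b1, the enzyme that degrades RA and is induced by it, had 17981 and 17128 in WT and 16818 and 19094 in KO #8 (adjusted p = 0.89), and Nr2f2, an orphan receptor raised by RA, 10597 and 10607 in WT and 8209.9 and 6218 in KO #8 (adjusted p = 0.0711).

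Of 36 genes of Notch signalling, all outside chromosome 8, 1 was called higher and 3 lower. The shares of all members there were 0.707% and 2.1%. The list had a median of -0.04. Both KO #8 libraries lay above both WT libraries in 14 and below in 11, where 26.3% and 27.1% of all members did. At an unadjusted p under 0.05 by limma 9 were higher and 6 lower. Beside the receptor Notch1, the endothelial receptor Notch4 had 684 and 697 in WT and 471 and 417 in KO #8 (log2 fold change -0.64, SE 0.12, adjusted p = 0.0373). Dlk1, a ligand-like inhibitor of the pathway, had 16811 and 14761 in WT and 10649 and 8184 in KO #8 (log2 fold change -0.75, SE 0.14, adjusted p = 0.0377). Hey1, a target gene and transcriptional repressor, had 3091 and 3006 in WT and 1827 and 1355 in KO #8 (log2 fold change -0.95, SE 0.14, adjusted p = 0.0243). Notch3 did not pass, with 5455 and 5101 in WT and 6159 and 5853 in KO #8 (adjusted p = 0.264).

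Of 81 genes of Wnt signalling 5 were called higher and 7 lower, all outside chromosome 8. The shares of all members there were 0.707% and 2.1%. Among the ligands Wnt4, which acts in kidney and gonad, had 3989.8 and 3862 in WT and 1329 and 979.7 in KO #8 (log2 fold change -1.78, SE 0.14, adjusted p = 0.0149), and Wnt2b 677 and 567 in WT and 255 and 223 in KO #8 (log2 fold change -1.38, SE 0.16, adjusted p = 0.0201). Wnt2 and Wnt11 had 141 and 129 in WT and 53.3 and 43.9 in KO #8 and 1999 and 1592 in WT and 884 and 562 in KO #8, with log2 fold changes of -1.47 and -1.33. All 4 of these ligands fell. Lgr6, a receptor for R-spondin, fell as well, with 98.3 and 105 in WT and 34.6 and 35.9 in KO #8 (-1.51). Of the receptors of the Frizzled family 3 rose. Fzd10 had 459 and 484 in WT and 1014 and 1644 in KO #8 (log2 fold change 1.45, SE 0.26, adjusted p = 0.0345), Fzd3 1755 and 1744 in WT and 2648 and 3350.1 in KO #8 (0.77) and Fzd5 520.0 and 498 in WT and 892 and 787 in KO #8 (0.72). Fzd4 and Fzd7, chosen after their values were seen, were lower in both KO #8 libraries than in WT and did not pass. Fzd4 had 2517 and 2519 in WT and 1837 and 1160.3 in KO #8 (adjusted p = 0.0844). Fzd7 had 8466 and 7920.4 in WT and 6459 and 5521 in KO #8 (adjusted p = 0.0613). Celsr2, a cadherin of planar cell polarity, rose to 2417 and 4262 from 1008 and 1274 (log2 fold change 1.50, SE 0.27, adjusted p = 0.036), and the secreted inhibitor Sfrp5 to 682 and 623 from 241 and 284 (log2 fold change 1.32, SE 0.15, adjusted p = 0.0174). Ctnnb1, the β-catenin at the centre of the pathway, had 33434 and 34308 in WT and 35032 and 31198 in KO #8 and did not pass (adjusted p = 0.865).

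Of 66 genes of axon guidance 5 were called higher, 1 of them on chromosome 8, and 7 lower, against the same shares of all members. Of the secreted cues, Ntn1 and Slit2 rose, with Ntn1 (netrin-1) at 375 and 310.1 in WT and 815 and 1048 in KO #8 (log2 fold change 1.43, SE 0.18, adjusted p = 0.0205) and Slit2 at 818 and 857 in WT and 1246 and 1145 in KO #8 (log2 fold change 0.52, SE 0.10, adjusted p = 0.0395). Rgma, a repulsive membrane protein, had 731 and 741 in WT and 1280.1 and 1319.9 in KO #8 (log2 fold change 0.82, SE 0.09, adjusted p = 0.0174), and the semaphorin receptor Plxna2 rose by 0.50. The ephrin ligand Efnb2, on chromosome 8, rose by 0.54. Among the genes that fell were the semaphorins Sema3d with 248 and 214 in WT and 79.5 and 73.8 in KO #8 (log2 fold change -1.58, SE 0.23, adjusted p = 0.0235) and Sema3c with 1284 and 1100.5 in WT and 637 and 617 in KO #8 (-0.93), the Slit receptor Robo2 with 1266 and 1067 in WT and 689 and 552 in KO #8 (-0.91), and the ephrin receptors Ephb2 with 9867 and 10019 in WT and 6193 and 5480.1 in KO #8 (log2 fold change -0.77, SE 0.09, adjusted p = 0.0189) and Ephb6 (-0.88).

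**Figure D4:**
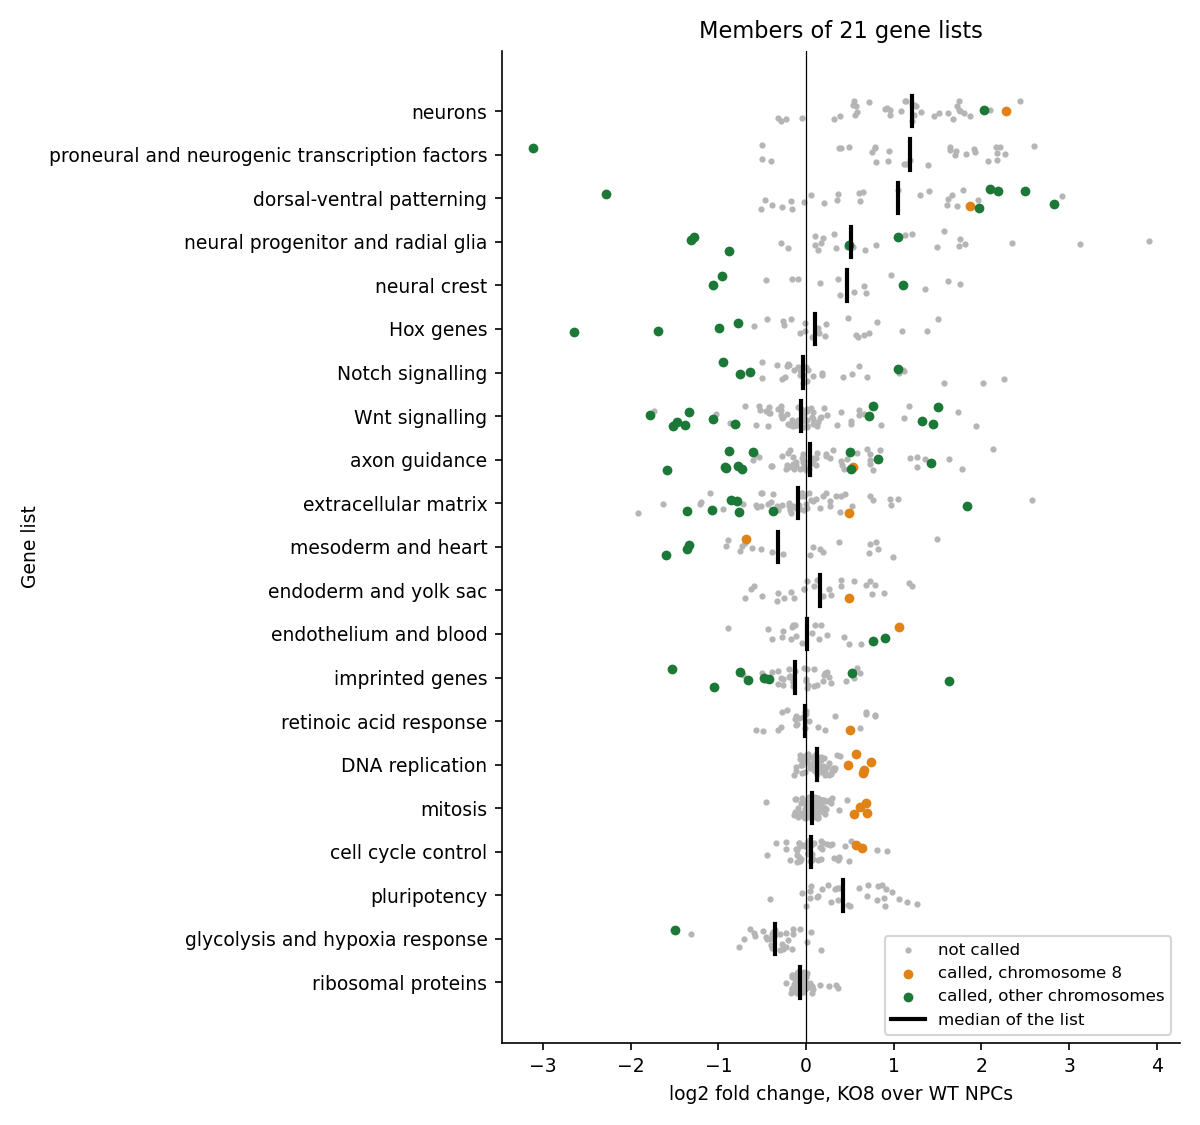
Log2 fold change of KO #8 over WT for the members of 21 gene lists, 1 point per gene, with the median of each list as a black bar. The lists of neurons, proneural factors and dorsal-ventral patterning have medians of 1.21, 1.19 and 1.05, and the called genes of DNA replication, mitosis and cell cycle control all lie on chromosome 8 (orange).

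Of 62 genes of the extracellular matrix 6 were called lower and 2 higher, 1 of the latter on chromosome 8. Of all members outside that chromosome 2.1% were called lower and 0.707% higher. Col6a1 and Col6a2, neighbouring genes for chains of collagen VI on chromosome 10, had 1937 and 1444 in WT and 869 and 985 in KO #8 (log2 fold change -0.86, SE 0.16, adjusted p = 0.0374) and 1159 and 1007 in WT and 442 and 404 in KO #8 (log2 fold change -1.35, SE 0.13, adjusted p = 0.0159). Lama4, a laminin chain of vessels, fell to 213 and 208 from 495 and 389 (-1.07). Timp3, an inhibitor of matrix proteases, had 2489.8 and 2215 in WT and 1487 and 1251 in KO #8 (-0.78), with 21.3% of its exonic bases shared with Syn3 on the other strand, and Loxl1, a crosslinking oxidase, 825 and 835 in WT and 495 and 479.9 in KO #8 (-0.77). Col14a1 went the other way, with 94.4 and 62.9 in WT and 259.9 and 298 in KO #8 (log2 fold change 1.83, SE 0.26, adjusted p = 0.0232). Col3a1, a fibrillar collagen of mesenchyme, had 10059 and 9050.2 in WT and 9253 and 7468 in KO #8 and did not pass (adjusted p = 0.42).

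The embryoid bodies held RNA of cells other than neural ones in every group. Of 24 members of the mesoderm and heart list, 4 were called, all lower, 3 of them outside chromosome 8. Of all members outside that chromosome 2.1% were called lower. The list had a median of -0.32, with 11 of the 24 above 0. Both KO #8 libraries lay above both WT libraries in 6 and below in 12, where 26.3% and 27.1% of all members did. At an unadjusted p under 0.05 by limma 4 were higher and 11 lower. Wt1, a factor of kidney, gonad and mesothelium, had 7481 and 7229 in WT and 3458 and 2392 in KO #8 (log2 fold change -1.35, SE 0.17, adjusted p = 0.0201). Tbx18, a factor of mesothelium and somites, had 663 and 708 in WT and 277 and 184 in KO #8 (log2 fold change -1.59, SE 0.19, adjusted p = 0.0201). The forkhead factors Foxc1 and Foxc2 of paraxial mesoderm had 647 and 688 in WT and 304 and 228 in KO #8 (-1.33) and 1685 and 1527 in WT and 1035 and 957 in KO #8 (-0.69). Foxc2 lies on chromosome 8 and fell against the rise of that chromosome. Gata4, a factor of heart and primitive endoderm, had 7312 and 7206 in WT and 5304 and 3764 in KO #8 (adjusted p = 0.0629), and the heart and muscle calcium pump Atp2a2 6245 and 6930.5 in WT and 6989.6 and 6948 in KO #8 (adjusted p = 0.642). The counts of the list summed to 33884 and 33403 in WT, 31040 and 24432 in KO #8 and 30120 and 29860 in KO #4.

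Markers of yolk sac and endoderm gave 1 call among 28 genes, Col4a1 on chromosome 8, and the list had a median of 0.16. That median was 0.33 without KO #8 library a and 0.04 without WT library a. Gata6, a factor of primitive endoderm and heart, had 8375 and 7863 in WT and 6426 and 4516 in KO #8 (adjusted p = 0.104), and the matrix protein Sparc 8948 and 8320.5 in WT and 6932 and 6916 in KO #8 (adjusted p = 0.0829). Of 22 markers of endothelium and blood 3 were called, all higher, but 11 of the 22 had a log2 fold change above 0. In 7 both KO #8 libraries lay above both WT libraries and in 4 below, where 26.3% and 27.1% of all members did. The list had a median of 0.01, which was -0.23 without KO #8 library a and 0.32 without b. Cdh5, the cadherin of endothelial junctions, is on chromosome 8 and had 1063 and 995 in WT and 2058 and 2239.7 in KO #8 (log2 fold change 1.06, SE 0.09, adjusted p = 0.0159), a rise above the median of its chromosome. The embryonic globins Hba-x and Hbb-y had 186 and 182 in WT and 363 and 323 in KO #8 (log2 fold change 0.90, SE 0.17, adjusted p = 0.0374) and 241 and 232 in WT and 407 and 396 in KO #8 (log2 fold change 0.76, SE 0.14, adjusted p = 0.0382). The endothelial receptors Kdr and Flt1 did not pass, with 2637 and 2636 in WT and 2435 and 1666 in KO #8 (adjusted p = 0.269) and 1717 and 1198 in WT and 1116 and 1292 in KO #8 (adjusted p = 0.474). Of 16 neural crest genes 1 was called higher and 2 lower, all outside chromosome 8, with a median of 0.46. The shares of all members there were 0.707% and 2.1%. Ednrb, the endothelin receptor of migrating crest cells, had 878 and 1063 in WT and 1797 and 2392 in KO #8 (log2 fold change 1.10, SE 0.17, adjusted p = 0.0244), Ngfr, the low-affinity neurotrophin receptor, 998 and 1002 in WT and 456 and 588 in KO #8 (log2 fold change -0.95, SE 0.14, adjusted p = 0.0235), and Cdh6, a cadherin of crest and kidney, 767 and 913 in WT and 439 and 364 in KO #8 (log2 fold change -1.06, SE 0.15, adjusted p = 0.0235). Of 6 glial genes 0 were called by limma, with 1 higher at an unadjusted p under 0.05 and 1 called higher with all 6 libraries or with a trend.

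Placental genes had low counts in WT, from 0 for Prl3b1 and Prl7b1 to 95.4 in WT library b for Serpinb9e, and higher counts in KO #8. Within 6 families of genes known from the trophoblast, chosen after their values were seen, 15 genes were members, 12 on chromosome 13 and 3 on chromosome 7. All 15 lay above both WT libraries in both KO #8 libraries and higher in b than in a. By limma 0 were called, with 12 higher at an unadjusted p under 0.05. With counts this low in WT, a gene could reach the minimum base mean of members only through its KO #8 libraries. This minimum and the choice of families favoured genes above WT. The 15 of 15 therefore cannot be set against the 26.3% of all members that lay above WT. The order of b and a was also seen before the choice, so it is no test either. The summed counts of the 15 genes were 197 and 368 in WT, 1574 and 8181 in KO #8 and 1464 and 1042 in KO #4. Tpbpa, the trophoblast-specific protein of the spongiotrophoblast, had 7.86 and 27.1 in WT and 179 and 1540.4 in KO #8 and 257 and 102 in KO #4 (adjusted p = 0.364 against WT). Prl7b1, a placental relative of prolactin, had 0 reads in WT, 20.6 and 329 in KO #8 and 29.1 and 15.2 in KO #4. The placental cathepsin Ctsj had 8.85 and 4.34 in WT and 88.8 and 1167 in KO #8, and the pregnancy-specific glycoprotein Psg29 3.93 and 40.1 in WT and 155 and 751 in KO #8. Their counts differed widely within KO #8, and KO #8 library a lay near the KO #4 libraries. Of the 19 members with a log2 fold change of at least 3 that were not called, 11 belong to these families.

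All genes called in the 3 lists of the cell cycle lie on chromosome 8. Of 64 genes of DNA replication 5 were called, all higher, and all 5 are among the 6 list members on chromosome 8. They were Gins3 and Gins4 of the GINS helicase complex, Orc6 of the origin recognition complex, the helicase subunit Mcm5 and the licensing factor Cdt1. Mcm5 had 3428 and 3939 in WT and 5964 and 5544 in KO #8 (log2 fold change 0.65, SE 0.10, adjusted p = 0.0244) and Orc6 1070.4 and 1049.5 in WT and 1659.7 and 1691 in KO #8 (log2 fold change 0.66, SE 0.08, adjusted p = 0.0202), and the other 3 rose by between 0.48 and 0.74. On the other chromosomes the 58 members had a median of 0.11, with 0 called by limma and 7 higher at an unadjusted p under 0.05. Of all 64, 31 lay above both WT libraries in both KO #8 libraries and 4 below, where 26.3% and 27.1% of all members did. Rrm1, a subunit of ribonucleotide reductase, had 5330.5 and 5752 in WT and 6105 and 5665 in KO #8 (adjusted p = 0.627), and Mcm6 5346 and 5752 in WT and 6281 and 5466 in KO #8 (adjusted p = 0.702).

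Of 95 genes of mitosis 4 were called higher, Anapc10 and Cdc16 of the anaphase promoting complex, the spindle protein Ckap2 and the centromere protein Cenpn. Ckap2 had 1132 and 1205 in WT and 1876 and 1881 in KO #8 (log2 fold change 0.69, SE 0.08, adjusted p = 0.0201) and the other 3 rose by 0.69, 0.55 and 0.62. The median over the 90 members on other chromosomes was 0.06, with 7 higher and 1 lower at an unadjusted p under 0.05 by limma. Of all 95, 40 lay above both WT libraries in both KO #8 libraries and 7 below, where 26.3% and 27.1% of all members did. Top2a, which untangles chromosomes before division, had 9714 and 9966 in WT and 10866 and 10359 in KO #8 (adjusted p = 0.49). Among 52 genes of cell cycle control, E2f4 and Tfdp1, a transcription factor and its dimer partner, were called, with 1523 and 1730.4 in WT and 2479.8 and 2551 in KO #8 (log2 fold change 0.63, SE 0.09, adjusted p = 0.0243) and 2986 and 3194 in WT and 4766 and 4413 in KO #8 (log2 fold change 0.57, SE 0.09, adjusted p = 0.0243). The inhibitor Cdkn1c had 13592 and 14180 in WT and 12382 and 12104 in KO #8 and the kinase Cdk4 8723 and 9237 in WT and 8862 and 8669 in KO #8, with adjusted p of 0.247 and 0.846. Of the 52, 20 lay above both WT libraries and 9 below, against the same 26.3% and 27.1% of all members, and 3 of the 52 lie on chromosome 8. The NuRD subunit Gatad2a, also on chromosome 8, rose with 2738 and 3075 in WT and 4092 and 3989 in KO #8 (log2 fold change 0.48, SE 0.09, adjusted p = 0.0382), and the other 14 members of the complex did not pass, with 12689 and 14004 in WT and 14894 and 13300 in KO #8 for its ATPase Chd4 (adjusted p = 0.701).

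Pluripotency genes, p53 targets and ribosomal proteins gave 0 calls by limma, with 6, 10 and 2 genes higher and 1, 1 and 0 lower at an unadjusted p under 0.05. That threshold was reached by 2657 of all 12412 members in either direction. With all 6 libraries 1, 4 and 1 were called higher and 1, 1 and 0 lower, and with a trend 0, 1 and 0 higher and 1, 0 and 0 lower. Among 30 pluripotency genes the median was 0.43 with b above a in 29. It was 0.84 without KO #8 library a and 0.15 without b. It was 0.19 and 0.76 without WT library a and b. The log2 fold change was above 0 in 28 of the 30. In both KO #8 libraries 9 lay above both WT libraries and 1 below, where 26.3% and 27.1% of all members did. Tbx3, a factor of the naive network and of many later tissues, is among the 3 with the highest base means. It had the lowest log2 fold change of the list, with 1640.5 and 1711 in WT and 1220.3 and 1296 in KO #8 (adjusted p = 0.0542). The p53 targets had a median of 0.24 over 25 genes, with 3441 and 3259 in WT and 4688 and 4002 in KO #8 for cyclin G1 (Ccng1, adjusted p = 0.102). All 71 ribosomal protein genes were higher in KO #8 library b than in a, by a median of 0.28, and their median against WT was -0.07. Without KO #8 library a that median was 0.06, and without b -0.20. For 33 genes of glycolysis and the hypoxia response b also exceeded a in all 33, by a median of 0.53, with a median of -0.36 against WT. That median was -0.06 without WT library a or KO #8 library a, -0.62 without WT library b and -0.64 without KO #8 library b. Adm, the hypoxia-induced peptide adrenomedullin, was the only one of the 33 genes called, with 521 and 327 in WT and 133 and 166 in KO #8 (log2 fold change -1.49, SE 0.30, adjusted p = 0.0488), and was not called under TMM scaling (adjusted p = 0.0519). The glycolytic enzymes Pkm, Eno1 and Ldha did not pass, as with 26054 and 20816 in WT and 16983 and 23359 in KO #8 for Ldha (adjusted p = 0.532). In the counts summed over this list, 316607 and 233242 in WT and 189200 and 264675 in KO #8, the groups overlapped. The 3 members on the Y chromosome, of which Ddx3y had 1307 and 1212 in WT and 1780.4 and 1624 in KO #8 (adjusted p = 0.0594), were not called.

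Imprinted genes, which are expressed from the copy of a single parent, gave 2 calls higher and 6 lower among 45 members. All 45 lie outside chromosome 8, and the shares of all members there were 0.707% and 2.1%. The list had a median of -0.12. Both KO #8 libraries lay above both WT libraries in 14 and below in 20, where 26.3% and 27.1% of all members did. Peg13 and Nnat, both expressed from the paternal copy, had 81.6 and 112 in WT and 253 and 348 in KO #8 (log2 fold change 1.63, SE 0.28, adjusted p = 0.0322) and 1960 and 2029 in WT and 2879 and 2835 in KO #8 (log2 fold change 0.52, SE 0.08, adjusted p = 0.0244). H19, the maternally expressed RNA beside Igf2, had 13202 and 11160 in WT and 3833 and 4653 in KO #8 (log2 fold change -1.52, SE 0.13, adjusted p = 0.0149), and Zim1, a maternally expressed zinc finger gene, 3259.5 and 2835 in WT and 1682 and 1285 in KO #8 (log2 fold change -1.05, SE 0.14, adjusted p = 0.0221). Dlk1, Meg3 and Rian lie in a row on chromosome 12 between 110691033 and 110899919. All 3 fell, the paternally expressed Dlk1 by 0.75 on the log2 scale and the maternally expressed RNAs Meg3, with 11846 and 11876 in WT and 7189 and 7868 in KO #8 (log2 fold change -0.66, SE 0.08, adjusted p = 0.0201), and Rian, with 10765 and 10250 in WT and 8039 and 7098 in KO #8 (log2 fold change -0.48, SE 0.09, adjusted p = 0.0415). Igf2, the paternally expressed growth factor, had 103660 and 98986 in WT and 93046 and 71212 in KO #8 and did not pass (adjusted p = 0.251).

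To see where KO #8 differs from the other clone, both were compared in a single fit over all 6 NPC libraries. Of the 12412 members 99 differed (0.798%), with 60 higher in KO #8 (0.483%) and 39 lower (0.314%). Of the 99, 28 were also called against WT, where 4.9% of all members were. Both comparisons use the same KO #8 libraries, so that a call in both is not independent. Of 45 imprinted genes, 15 were among the 99. Grb10, an imprinted inhibitor of growth factor signalling, had 16732 and 15579 in KO #8, 111 and 119 in KO #4 and 24015 and 20686 in WT, and differed by 7.13 between the clones (SE 0.21, limma adjusted p = 5.87e-06). Zim1 had 1682 and 1285 in KO #8 and 15 and 27.1 in KO #4 (6.16, adjusted p = 0.00433). In both genes KO #8 was nearer to WT than KO #4 was. H19 had 3833 and 4653 in KO #8, 82524 and 80929 in KO #4 and 13202 and 11160 in WT, lower than WT in the former and higher in the latter (-4.27, adjusted p = 3.83e-06). Igf2 had 93046 and 71212 in KO #8 and 9789 and 10392 in KO #4 (3.01, adjusted p = 3e-05), and Nnat 2879 and 2835 and 4269 and 4373 (-0.60, adjusted p = 0.01).

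Beyond imprinting, the embryonic globins were higher in KO #8, with 407 and 396 and 18.1 and 34.7 in KO #8 and KO #4 for Hbb-y (3.99, adjusted p = 0.00201). Ugt2b34 had 10 and 10.8 in KO #4, below the 22.6 and 45.5 of WT, where KO #8 was above (4.09, adjusted p = 0.0185). Several genes called above in KO #8 differed between the clones as well. Mab21l2 had 52.2 and 31.4 in KO #4 (3.00, adjusted p = 0.033), Sfrp5 118 and 127 (2.41, adjusted p = 0.00122), Fzd5 447 and 492 (0.84, adjusted p = 0.0203), Wnt2b 549 and 579.8 (-1.23, adjusted p = 0.0165), Hoxc5 4364 and 4062 (-0.70, adjusted p = 0.0159) and Tbx18 512 and 489 (-1.14, adjusted p = 0.0398). The WT libraries are shared by both clones, so that an equal direction against WT in both is not independent. As examples of genes described above for which the clones did not differ past the test, the values in KO #4 were 738 and 738 for Irx1, 710.1 and 759 for Zic1, 1947 and 2249 for Tubb3, 52.2 and 57.4 for Hoxd9 and 147 and 137 for Emp1. On chromosome 8, 3 of the 677 members differed between the clones, where 0.798% of all members did. The number of genes that differ was 2267 without KO #8 library a, 612 without KO #8 library b, 5 and 10 without KO #4 library a or b, 14 without either WT library, and 170 with a trend in place of weights.

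**Figure D5:**
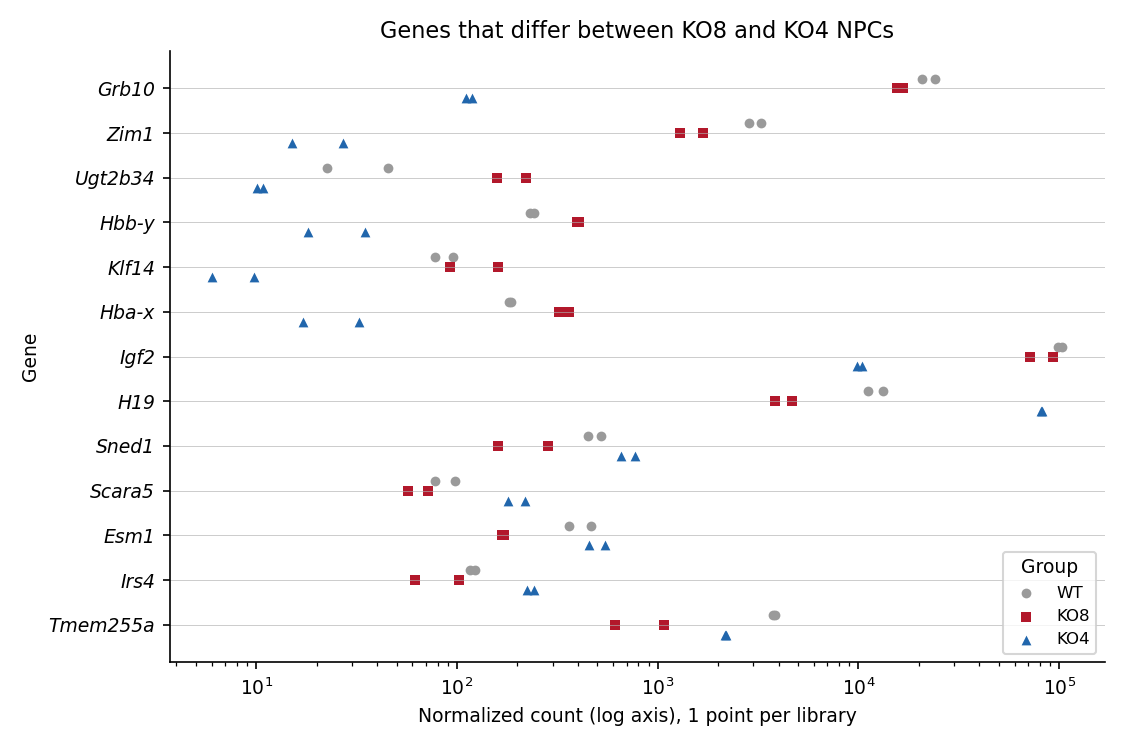
Normalized counts (log axis) of 13 genes in the 6 NPC libraries, 1 point per library, for WT (circles), KO #8 (squares) and KO #4 (triangles): the 6 with the largest difference between the clones in each direction and Igf2. Grb10 has 111 and 119 in KO #4 against 15579 to 16732 in KO #8, and H19 is the gene with KO #4 far above KO #8.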

How the data were processed

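RNA of 4 libraries of NPCs (WT and KO #8, 2 each) was compared, with the 2 KO #4 libraries beside them. Per the labels, the authors used Trim Galore 0.6.7 for trimming, HISAT2 2.2 for the alignment to mm9, featureCounts for the counts of each gene and DESeq2 1.46.0 for normalization and tests. The strand setting of the counting is not given in the sources used here, so reads of overlapping genes on opposite strands may not be told apart. The deposited tables hold no counts per library. They give the base mean, a signal, namely the authors' average of normalized counts over the libraries compared, and the authors' own log2 fold change and its standard error on the log2 scale, their score, p-value and adjusted p-value.

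The reads of each library were worked out from the base means of the KO #8 and KO #4 tables, which share the WT libraries, as the whole numbers that give both base means. For 11817 members the base means left a single set in the range searched. Otherwise the set was taken for which an emulated negative binomial fit gave the deposited fold change within 1e-08 at the deposited standard error. The authors' fold changes, p-values and scores were used for nothing else and are not reported. Counts were found for 25205 of 25209 genes. On simulated data 1862 of 1862 genes whose base mean reached 10 were recovered exactly. Size factors computed from the recovered counts differed from those implied by the base means by at most 0.00623%.

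Genes whose base mean reached 10 were fitted with voom weights in limma 3.58.1 (R 4.3.3) on the size factors, with no covariate, first KO #8 and WT alone, then all 6 libraries for KO #8 against KO #4. In simulated data with 200 changed genes, for KO #8 against WT, limma called 24 of 100 genes with a true log2 change of 0.5, 74 of 100 with a true change of 1, and 4 of 14264 without a change. The simulation gave both groups the same spread and drew each gene on its own. In the data KO #8 varied more than WT, and many genes moved together between its libraries, so these rates need not hold there. Depth limits the precision of genes with few reads, and 2 libraries per group limit all p-values. Lists of genes (25) were written by hand and described by counts and medians, with no set test. The members and the lists were chosen with earlier results of these data known. Named were the 12 largest called rises and falls, up to 5 called genes per direction and the 3 highest base means of each list, Zfp512b and Zfp512, the 5 called genes of chromosome 8 with the highest base mean and the 6 largest differences between the clones per direction. Other genes are said to be chosen after their values were seen. A gene that the rule names is not reported here. Positions are those of the mm9 annotation GENCODE M1, matched for 10975 members by symbol and 1114 by synonym. Alternatives were library totals, TMM scaling, other filters, a trend in place of weights, a shared spread and each library left out. Scripts ran in Python 3.11.15 (numba 0.67.0, scipy 1.17.1, numpy 2.4.6, pandas 2.3.3, matplotlib 3.10.9).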

Additional observations from a re-analysis of the deposited data

Results flagged for a closer look

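KO #8 and KO #4 differed in their effect at the same stage for 99 members by the test of the difference itself (limma over 6 libraries, adjusted p under 0.05), and the 6 with the largest differences in each direction are given here as log2 values of KO #8 over KO #4. Grb10 (7.13) and Zim1 (6.16), imprinted genes, were nearly lost in KO #4 and present in KO #8. Ugt2b34 differed by 4.09, the embryonic globins Hbb-y and Hba-x by 3.99 and 3.85, and the imprinted transcription factor Klf14 by 3.92. In the other direction H19 differed by -4.27, with 3833 and 4653 normalized counts in KO #8 and 82524 and 80929 in KO #4, and Sned1, Scara5, Esm1, Irs4 and Tmem255a by -1.73, -1.63, -1.56, -1.53 and -1.40. Sned1 shares 19.5% of its exonic bases with Mterfd2 on the other strand, and Tmem255a 10.6% with Zbtb33. In Grb10, Zim1, Hbb-y, Hba-x and Klf14 the KO #8 libraries lay nearer to the WT libraries, and the KO #4 libraries lay far below. Against WT, Grb10 in KO #8 was not called (adjusted p = 0.0569), Klf14 was not called (adjusted p = 0.473) and Esm1 fell (log2 fold change -1.28, SE 0.20, adjusted p = 0.0261). Within single groups no library could be tested for standing apart, as each holds 2.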

How the results depend on the processing

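Library totals, TMM scaling, no filter on low values and a base mean minimum of 50 left the counts of genes called higher and lower, and of genes that differ between KO #8 and KO #4, within 1.5 times the values reported, with ranges of 346 to 397, 235 to 273 and 93 to 110. A trend in place of weights gave 607 higher and 170 differing between the clones. A spread shared by all 6 libraries gave 747 higher, 535 lower and 183 called genes of the lists, where 85 were reported. A minimum absolute change of 1 on the log2 scale left 75 higher and 121 lower, and without chromosome 8 83 were higher. Leaving out each library in turn gave 0 to 1693 genes higher, 0 to 1233 lower, 0 to 395 of the lists and 5 to 2267 differing between the clones, low without a WT library (or a KO #4 library for the difference of the clones) and high without a KO #8 library. With 1 library left in a group, that library is assumed to vary like the other group. Zfp512b stayed between -3.51 and -3.33 in these fits and was not called without WT library b (adjusted p = 0.0651). The chromosome 8 median stayed between 0.51 and 0.54. Without WT library a or b, 106 of the results on named genes were no longer called in each case, and the cause was not tested. In 32 fits a named gene turned its direction, each a gene that was not called in the values reported. With 1 library left out their log2 fold changes ranged over -0.024 to 0.0080 (Anapc5), -0.050 to 0.15 (Bmp7), -0.12 to 0.086 (Ccnd2), -0.076 to 0.0069 (Cdk4), -0.0029 to 0.16 (Chd4), -0.12 to 0.049 (Ctnnb1), -0.062 to 0.12 (Cyp26b1), -0.34 to 0.037 (Eno1), -0.17 to 0.48 (Ets1), -0.52 to 0.0021 (Flt1), -0.22 to 0.0057 (Gja1), -0.037 to 0.061 (Gnas), -0.042 to 0.17 (Hoxa4), -0.46 to 0.0038 (Ldha), -0.020 to 0.18 (Mcm6), -0.015 to 0.028 (Mib1), -0.10 to 0.30 (Mki67), -0.19 to 0.10 (Ncam1), -0.25 to 0.018 (Neo1), -0.055 to 0.69 (Pdgfra), -0.30 to 0.062 (Peg10), -0.34 to 0.0097 (Pkm), -0.18 to 0.046 (Rpl4), -0.20 to 0.0046 (Rpsa), -0.22 to 0.13 (Sfrp1) and -0.085 to 0.21 (Tet2). Adm was called under 0.05 in the values reported and not under TMM scaling (adjusted p = 0.0519). No paired analysis was possible because the recovered counts of a group carry no replicate number. Fewer reads limit what can be called among weakly expressed genes, and 2 libraries per group limit every count.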

Other observations

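Several neural genes outside the rules for naming were chosen after their values were seen, and none of them passed the test. Pax8, a paired box factor of spinal cord interneurons and kidney, had 11.8 and 14.1 in WT and 51.4 and 206 in KO #8 (log2 fold change 2.92, SE 1.00, adjusted p = 0.169), and Sall3, a zinc finger factor of neural tissue, 39.3 and 34.7 in WT and 212 and 592 in KO #8 (adjusted p = 0.1). Ncan, a proteoglycan of the brain matrix that lies on chromosome 8, had 136 and 119 in WT and 518 and 1149 in KO #8 (adjusted p = 0.0639). Slc32a1, the vesicular transporter of inhibitory neurons, had 30.5 and 18.4 in WT and 85.1 and 212 in KO #8 (adjusted p = 0.105), and Lhx5, an interneuron factor, 160.2 and 181 in WT and 176 and 625 in KO #8 (adjusted p = 0.48). In all 5 KO #8 library b was the highest of the 6 NPC libraries. The reverse was seen for Hmgcs1, an enzyme of cholesterol synthesis, with 889.6 and 726 in WT and 1696 and 468 in KO #8 and 454 and 492 in KO #4, where KO #8 library a was the highest.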
